A study of Mus musculus with 20 samples.

Results

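CMP013, a small-molecule inhibitor of the aspartyl protease BACE1 (the β-secretase that cuts the amyloid precursor protein), changed a broad set of liver transcripts in mice that lack the pregnane X receptor (PXR, gene Nr1i2). In these mice, Mmp12, Lgals3 and other macrophage genes, acute phase genes, immediate early genes and several stress genes rose, while genes of fatty acid synthesis and many genes with male-biased liver expression fell. The comparison described here is that of 5 PXR-KO mice given CMP013 with 5 PXR-KO mice given vehicle, which are 10 of the 20 samples of the series. The remaining 10 samples are WT mice, 5 on CMP013 and 5 on vehicle, and they serve only to test where the response without PXR differed from that with PXR. All animals were males, 9 weeks old at the start, and were dosed by gavage every 24 h with vehicle (an acidified mixture of water, hydroxypropyl methylcellulose and a polysorbate) or with 150 mg/kg/day of CMP013. Livers were taken at 96 h, after a short fast. Each liver was hybridized to its own Affymetrix Mouse 430_2 array with no technical replicates. The knockout is carried by the whole body. The labels place the PXR-KO mice on C57BL/6 in one field and on C57BL/6NTac in another, so the effects of PXR and of the strain source cannot be told apart in any comparison with WT mice. A single dose and a single time were sampled.

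PXR is a nuclear receptor of hepatocytes and gut epithelium that binds drugs, bile acids and steroids and switches on the genes that oxidize, conjugate and export them, with Cyp3a11 as its classical target. Its relative CAR (gene Nr1i3) drives an overlapping set with Cyp2b10 as the leading target. The liver is also an immune and endocrine organ. Kupffer cells, its resident macrophages, clear the blood, hepatocytes secrete acute phase proteins when cytokines such as IL-6 and IL-1 reach them, and pulses of growth hormone, read through its receptor and STAT5b, keep the male pattern of liver gene expression.

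Values are log2 ratios of the signal of 1 animal to the mean signal of the 5 vehicle animals of its genotype, so vehicle animals scatter around 0. A log2 fold change is the mean of the treated minus the mean of the vehicle animals. A gene is said to have risen or fallen where limma gave an adjusted p under 0.05 over all 45037 probe sets, and 1 probe set stands for each gene. Because the deposited values are ratios within a genotype, neither the level of any transcript, nor the loss of the Nr1i2 transcript, nor the identity of the tissue by its markers can be checked here. Each call was also looked for in 10 leave-one-out fits, each of which omitted 1 of the 10 mice, and a call is described as held where it passed in them.

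Of the 45037 probe sets, 953 rose and 692 fell, which is 3.65% in all, 2.12% higher and 1.54% lower. Among the 18193 genes measured by 1 probe set each, 4.38% changed, 2.36% higher and 2.01% lower. These shares are the background for the PXR-KO calls of every gene group below. The share of all genes that changed in WT mice is not given, so the WT counts below stand without a background. The median log2 fold change over all genes was -0.01. By limma, an unadjusted p under 0.05 was reached at 9034 of the 45037 probe sets in either direction. Counts below at an unadjusted p are to be read against that number. A change of at least 2-fold was seen at 319 of the probe sets that rose and at 203 of those that fell. The number of calls depended on which mice were included. Fits without 1 of vehicle mice 2 to 5 or of treated mice 1, 2 and 4 gave between 620 (without treated mouse 4) and 913 calls. Without vehicle mouse 1, treated mouse 5 or treated mouse 3 the fits gave 1160, 1412 and 1728 calls. Vehicle mice 2 and 4 had the widest scatter of the vehicle mice (past the size threshold, a ratio of 5 to 4 either way, at 36.8% and 30.5% of probe sets, against 20.7% to 24.4% in the other vehicle mice). With both omitted, 363 calls were left. All 1645 calls kept their direction in each of these fits. As the calls were selected in the same mice, a kept direction is no independent support for them. With trend and robust variances limma gave 0 calls, although an unadjusted p under 0.05 was reached at 8806 probe sets, and the smallest adjusted p was 0.0536.

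Over the probe sets that limma called, the treated animals were even in direction and uneven in size. All 5 treated mice were past the size threshold at 734 (77.0%) of the probe sets that rose and at 524 (75.7%) of those that fell. Treated and vehicle values did not overlap at 901 (94.5%) and 658 (95.1%) of them, whereas 7.57% of all probe sets and 9.27% of the genes measured by 1 probe set had groups that did not overlap. Over the probe sets that rose, the median log2 ratio was 0.78, 0.85, 0.61, 0.90 and 0.69 in treated mice 1 to 5. Over those that fell it was -0.87, -0.79, -0.65, -0.81 and -0.59. Treated mouse 4 had the strongest value at 374 of the probe sets that rose, and treated mouse 3 the weakest at 343 (36.0%). Treated mouse 5 was the weakest at 299 (43.2%) of those that fell. These medians and counts describe the probe sets that the same animals selected, by a test that favors small scatter within a group. The evenness of the response as a whole was not tested. From its own counting method, the paper proposes a less homogeneous response in PXR-KO than in WT mice.

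**Figure D1:**
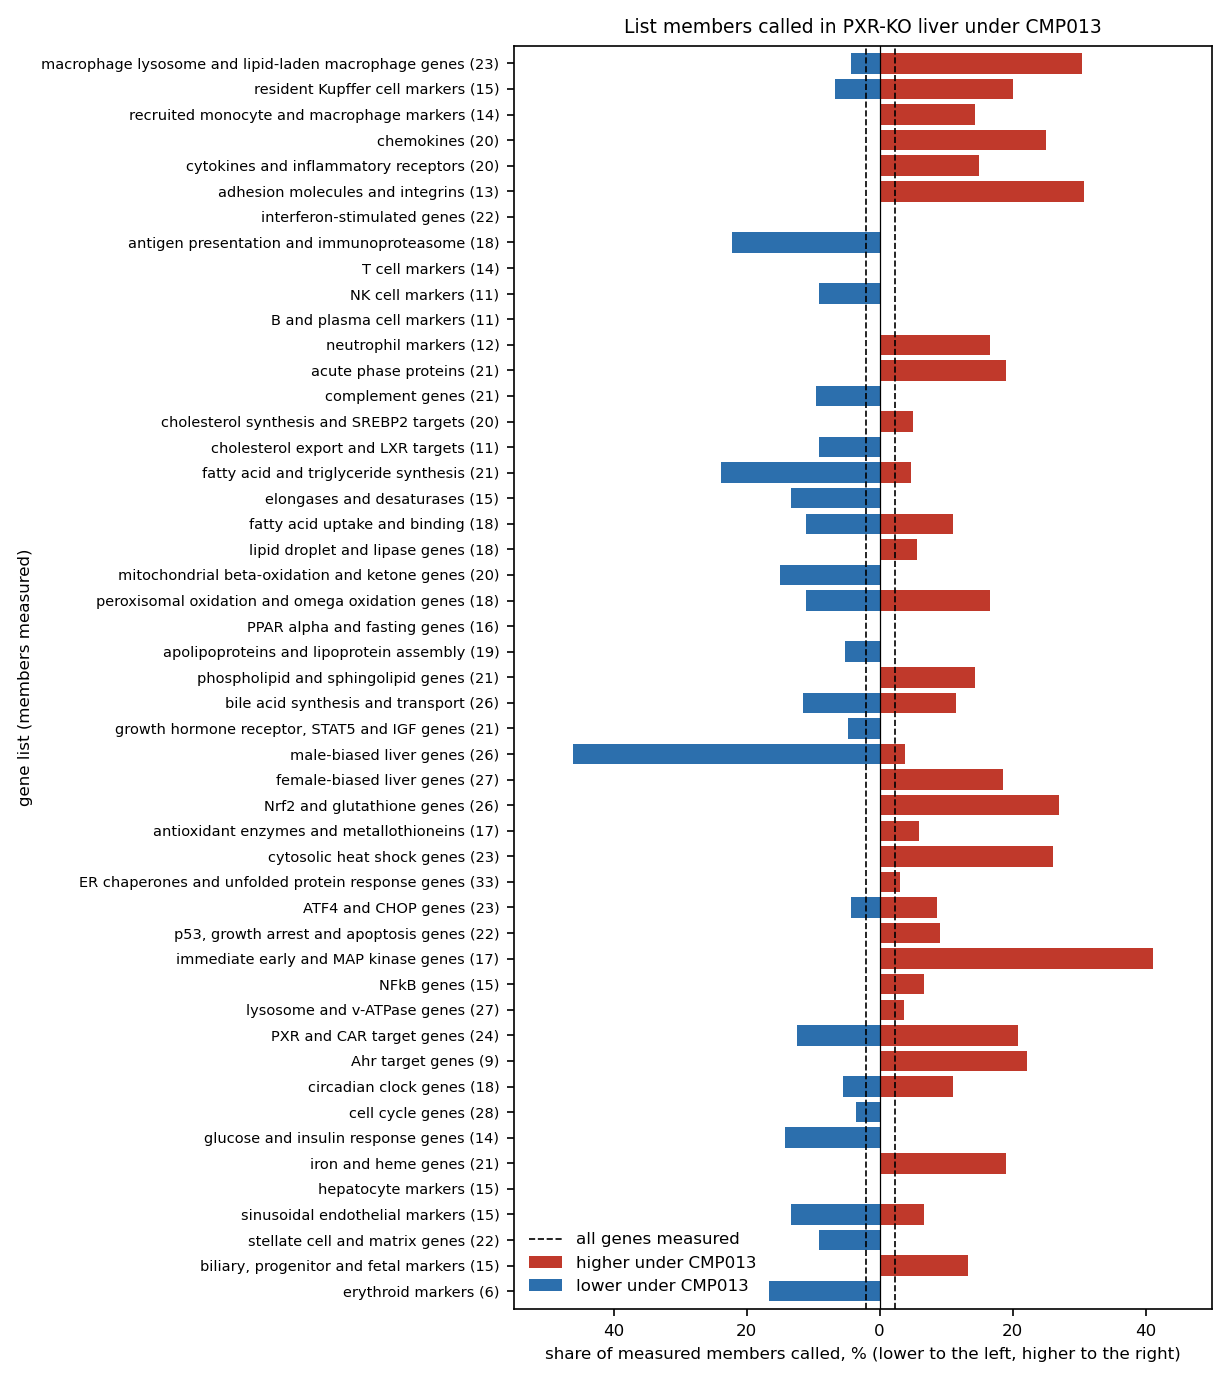
Share of the measured members of each gene list that rose (right, red) or fell (left, blue) in PXR-KO liver under CMP013, in percent, with the number of measured members in brackets; dashed lines mark the shares over all genes, 2.36% higher and 2.01% lower. Male-biased genes stand out on the lower side with 12 of 26 and immediate early genes on the higher side with 7 of 17.

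Most of the immune genes that changed rose. Each value below comes from whole liver, in which fewer cells of a type and less RNA per cell cannot be told apart. Of 23 measured genes of macrophage lysosomes and lipid-laden macrophages, 7 rose and 1 fell, and their median log2 fold change was 0.22, against -0.01 over all genes. Lgals3, which encodes the galactose-binding lectin galectin-3 of activated macrophages, gave log2 ratios of 1.80, 2.03, 2.16, 2.98 and 1.49 in the treated mice and of -0.03, 0.02, 0.02, -0.05 and 0.03 in the vehicle mice. The 2 groups were far apart, treated mouse 4 was the highest, and the change was 4.26-fold (log2 fold change 2.09, SE 0.23, adjusted p = 0.00273). Mmp12, the macrophage metalloelastase, had the largest rise of the genes described here, with 4.001, 4.51, 5.29, 6.10 and 3.46 in the treated and 0.25, 0.95, 0.22, -1.68 and -0.10 in the vehicle mice. The groups did not overlap although vehicle mouse 4 lay well below the others, and the rise was 26.8-fold (log2 fold change 4.75, SE 0.57, adjusted p = 0.00396). Cd68, a glycoprotein of macrophage lysosomes, was at 0.98, 0.88, 1.16, 1.41 and 1.08 against -0.16, -0.11, -0.17, 0.11 and 0.30, again without overlap (log2 fold change 1.11, SE 0.13, adjusted p = 0.00381). Atp6v0d2, a subunit of the vacuolar proton pump found in macrophages and osteoclasts, rose as well (log2 fold change 1.80, adjusted p = 0.00482).

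The calls of Lgals3, Mmp12, Cd68 and Atp6v0d2 held in all 10 leave-one-out fits and in the fit without vehicle mice 2 and 4. In that last fit 4 of the 23 genes rose and 1 fell. The cathepsin Ctsz (log2 fold change 0.53, adjusted p = 0.0137), Gpnmb, a transmembrane glycoprotein of lipid-laden macrophages (log2 fold change 1.88, adjusted p = 0.0291), and Lgmn, an asparaginyl protease of lysosomes (log2 fold change 0.56, adjusted p = 0.0339), made up the rest of the rise, and the calls of Gpnmb and Lgmn held in 6 and 2 of the 10 fits. A further probe set of Gpnmb stayed at 0.08. The member that fell was Fabp5, a fatty acid-binding protein found in macrophages and other cells, at -3.27, -3.13, -3.06, -2.70 and -2.29 in the treated and -0.02, -0.42, -0.15, 0.27 and 0.33 in the vehicle mice (log2 fold change -2.89, SE 0.21, adjusted p = 0.000522). All treated animals were low, and the call held in all 10 fits.

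Markers of the macrophages themselves moved less uniformly. Among 15 measured markers of resident Kupffer cells 3 rose and 1 fell (median 0.23), and none passed without vehicle mice 2 and 4. Marco, a scavenger receptor, gave 3.72, 3.02, 2.51, 3.64 and 3.05 in the treated mice and -2.38, -1.82, -1.73, -0.68 and 1.47 in the vehicle mice. The vehicle mice thus covered a wide span with mouse 5 on top, yet stayed below every treated mouse (log2 fold change 4.22, SE 0.64, adjusted p = 0.00894). Clec1b, a C-type lectin-like receptor, rose (log2 fold change 0.60, adjusted p = 0.0200), and so did the iron exporter Slc40a1 (log2 fold change 0.41, adjusted p = 0.0476), whose call held in 0 of the 10 leave-one-out fits. Folr2, a folate receptor of resident macrophages, fell (log2 fold change -1.05, adjusted p = 0.0442). Clec4f, the lectin that defines Kupffer cells in the mouse, was at -0.53 to 0.22 in the treated and -0.33 to 0.40 in the vehicle mice and did not pass (log2 fold change -0.28, adjusted p = 0.414), and neither did Vsig4 (log2 fold change 0.23, adjusted p = 0.499) or Cd5l (log2 fold change 0.37, adjusted p = 0.172).

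Averaged over the Kupffer list, vehicle mice ran from -0.50 to 0.48 and treated mice from 0.09 to 0.50, so the groups overlapped. Averaged over the macrophage lysosome list they ran from -0.16 to 0.02 and 0.26 to 0.83 and did not. Recruited monocyte and macrophage markers gave 2 rises among 14 members, Chil3 (log2 fold change 1.78, adjusted p = 0.0321) and the adaptor Tyrobp (log2 fold change 0.66, adjusted p = 0.0366), with a list average of -0.11 to 0.20 in vehicle and 0.11 to 0.62 in treated mice. None of the 14 passed without vehicle mice 2 and 4. Clec4d, a C-type lectin receptor of myeloid cells, rose 10.6-fold, from -1.04 to 1.11 in vehicle to 2.09 to 4.77 in treated mice (log2 fold change 3.41, SE 0.50, adjusted p = 0.00731). Whether the number of macrophages moved with these genes was not tested.

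The signals that draw leukocytes and hold them at vessel walls rose in part. Of 20 chemokines 5 rose and none fell (median 0.17). Ccl6 gave 2.22, 2.02, 1.37, 2.53 and 1.28 in treated and -0.09, -0.63, -0.08, 0.24 and 0.40 in vehicle mice (log2 fold change 1.92, SE 0.27, adjusted p = 0.00686). Cxcl10, which attracts T cells, gave 1.86, 2.01, 1.35, 1.66 and 1.17 against 0.25, -0.26, 0.41, -0.51 and 0.11 (log2 fold change 1.61, SE 0.21, adjusted p = 0.00533). For both genes the groups were separate and treated mice 3 and 5 were the lowest of the treated. The neutrophil attractants Cxcl1 (log2 fold change 2.66, adjusted p = 0.0242) and Cxcl2 (log2 fold change 1.44, adjusted p = 0.0142) and the monocyte attractant Ccl3 (log2 fold change 0.76, adjusted p = 0.0434) completed the list, and the calls of Cxcl1 and Ccl3 held in 4 and 0 of the 10 leave-one-out fits. Without vehicle mice 2 and 4 the calls were 2, Ccl6 and Cxcl10.

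Adhesion molecules and integrins gave 4 rises among 13 members (median 0.02). Vcam1, the endothelial ligand of leukocyte integrins, was at 1.249, 1.40, 1.42, 1.71 and 1.55 in the treated and -0.24, 0.39, -0.34, 0.07 and 0.23 in the vehicle mice. All treated animals were above all vehicle animals by a wide gap (log2 fold change 1.44, SE 0.16, adjusted p = 0.00250), and 2 further probe sets of Vcam1 rose by 1.26 and 1.77. Icam1 (log2 fold change 1.52, adjusted p = 0.0152), the leukocyte integrin chain Itgb2 (log2 fold change 0.88, adjusted p = 0.0181) and the hyaluronan receptor Cd44 (log2 fold change 0.75, adjusted p = 0.0495) rose, although the groups of Cd44 overlapped and its call held in 1 of the 10 fits. Among 20 cytokines and inflammatory receptors 3 rose: Il1rn, the natural antagonist of the IL-1 receptor (log2 fold change 1.32, adjusted p = 0.00841), Tlr2, a receptor for bacterial lipoproteins (log2 fold change 1.03, adjusted p = 0.0139), and Il1a (log2 fold change 0.94, adjusted p = 0.0222). Without vehicle mice 2 and 4 the adhesion list had 1 call, Vcam1, and the cytokine list had 0.

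**Figure D2:**
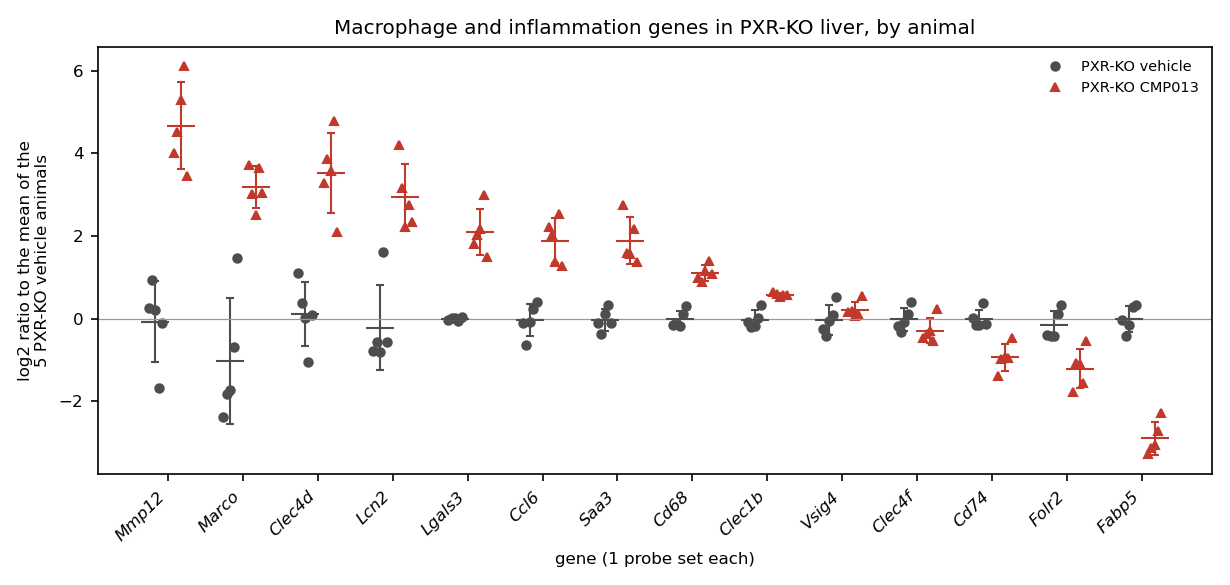
Log2 ratio of each PXR-KO animal to the mean of the 5 PXR-KO vehicle animals for immune genes, 1 probe set per gene; grey circles are vehicle mice, red triangles CMP013 mice, and horizontal lines with bars are mean and SD. Lgals3, Mmp12 and Cd68 are separate between groups in every animal, whereas Clec4f overlaps.

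Acute phase proteins, the plasma proteins that hepatocytes secrete in inflammation, rose at 4 of 21 members and fell at none (median 0.30), and 4 passed without vehicle mice 2 and 4. Orm3, an orosomucoid, gave 3.38, 2.26, 2.40, 2.11 and 1.75 in the treated and 0.13, -0.71, -0.04, 0.44 and -0.29 in the vehicle mice (log2 fold change 2.48, SE 0.30, adjusted p = 0.00429). Saa3, a serum amyloid A of liver and macrophages, gave 2.76, 1.59, 1.57, 2.16 and 1.36 against -0.09, -0.37, 0.11, 0.34 and -0.11 (log2 fold change 1.91, SE 0.26, adjusted p = 0.00552). In both, treated mouse 1 was the highest and the groups were separate. Lcn2, a siderophore-binding protein of neutrophils and injured hepatocytes, was at 4.19, 3.16, 2.21, 2.75 and 2.34 in the treated and -0.78, -0.56, -0.81, 1.61 and -0.55 in the vehicle mice. Vehicle mouse 4 stood out among its group but below every treated mouse (log2 fold change 3.15, SE 0.52, adjusted p = 0.0129). Saa1 in vehicle mouse 4, at 1.87, exceeded 4 of the 5 treated mice (1.05 to 1.94), and Saa1 did not pass (log2 fold change 1.20, adjusted p = 0.169). Il1rn, given above, was the fourth member that rose. Without vehicle mice 2 and 4, Orm3, Saa3 and Lcn2 still passed, Saa1 passed as well and Il1rn did not. The complement list had 2 members that fell, C8g (log2 fold change -0.51, adjusted p = 0.0166) and C9 (log2 fold change -0.74, adjusted p = 0.0397), of 21.

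Lcn2 also belongs to the neutrophil markers, of which 2 of 12 rose. The other was S100a8, a calcium-binding protein of neutrophils and monocytes (log2 fold change 2.08, adjusted p = 0.0343), whose call held in 2 of the 10 fits, while its partner S100a9 overlapped between groups (-0.07 to 4.17 in treated, -1.14 to 0.56 in vehicle mice). The neutrophil list averaged -0.20 to 0.14 in vehicle and 0.20 to 1.31 in treated mice, and the part of neutrophils in the rise of Lcn2 was not tested. Lymphocyte markers gave few calls: 0 of 14 T cell markers, 1 of 11 NK cell markers (Klrk1, which fell; log2 fold change -0.60, adjusted p = 0.0427) and 0 of 11 B and plasma cell markers.

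Antigen presentation moved in the opposite direction. Of its 18 members 4 fell and none rose (median -0.25), namely the invariant chain Cd74 (log2 fold change -0.93, adjusted p = 0.0200), the class II chain H2-Ab1 (log2 fold change -1.09, adjusted p = 0.0489), the peptide transporter Tap1 (log2 fold change -0.58, adjusted p = 0.0161) and the immunoproteasome subunit Psmb9 (log2 fold change -0.67, adjusted p = 0.0355). Cd74 gave -1.39, -0.96, -0.92, -0.95 and -0.46 in the treated and 0.02, -0.14, -0.14, 0.38 and -0.14 in the vehicle mice, with treated mouse 5 the closest to the vehicle group. The other 3 probe sets of Tap1 were at 0.08, -0.33 and 0.46 and did not pass. H2-Aa, another class II chain, fell on one probe set (log2 fold change -1.13, adjusted p = 0.0427) and did not pass on the one that stands for it in the list (log2 fold change -0.94, adjusted p = 0.0553). None of the 4 passed without vehicle mice 2 and 4. Of 22 interferon-stimulated genes 0 changed in either direction by limma, with 2 higher and 4 lower at an unadjusted p under 0.05 (median -0.03). In WT mice 15 of the 22 rose, and the response differed between genotypes at 14, all lower in PXR-KO mice, where 13.3% of all genes differed in either direction (11.0% of probe sets). Ifit1, an antiviral RNA-binding protein, gave -0.39, -0.86, -0.30, -0.22 and -0.28 in treated PXR-KO mice and a log2 fold change of 2.06 in WT mice (difference -2.48, adjusted p = 0.000140).

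Several of the immune rises were larger without PXR than with it. The macrophage lysosome list differed between genotypes at 11 of 23 members, 9 higher and 2 lower in PXR-KO mice. Lgals3 rose by 2.09 in PXR-KO and had a log2 fold change of 0.54 in WT mice (difference 1.56, adjusted p = 0.00272). Marco was at 4.22 and 0.10 (difference 4.11, adjusted p = 0.00404), Ccl6 at 1.92 and -0.20 (difference 2.12, adjusted p = 0.000183), and Vcam1 at 1.44 and 0.47 (difference 0.98, adjusted p = 0.00334). Among acute phase proteins 8 of 21 differed, all higher in PXR-KO mice, including Saa3 (1.91 and -0.58; difference 2.50, adjusted p = 0.000296). By contrast, Orm3 rose in both genotypes (3.14 in WT), with a difference of -0.67 (95% interval -1.55 to 0.22; adjusted p = 0.349), and Cxcl10 was 2.12 in WT mice (difference -0.51, 95% interval -1.45 to 0.42). Both intervals include 0 and are wide.

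Genes of fatty acid synthesis fell in part. Fatty acids are built in hepatocytes from acetyl-CoA by Acaca, Acacb and Fasn with NADPH from Me1, then elongated and desaturated by Elovl enzymes and Scd1, under the transcription factors SREBP1c and ChREBP (gene Mlxipl). Of 21 measured genes of fatty acid and triglyceride synthesis 5 fell and 1 rose, with a median of -0.53, and 13 were lower at an unadjusted p under 0.05. Me1, the cytosolic malic enzyme, gave -2.27, -2.04, -1.22, -1.58 and -1.18 in the treated and 0.16, 0.13, -0.04, -0.27 and 0.02 in the vehicle mice. It fell 3.15-fold with no overlap (log2 fold change -1.66, SE 0.21, adjusted p = 0.00482), held in all 10 leave-one-out fits and was the single member that passed without vehicle mice 2 and 4. The others that fell were Pklr, liver pyruvate kinase (log2 fold change -0.92, adjusted p = 0.0104), Gpam, the first acyltransferase of triglyceride synthesis (log2 fold change -0.76, adjusted p = 0.0258), Mlxipl itself (log2 fold change -0.53, adjusted p = 0.0323) and Agpat2 (log2 fold change -0.40, adjusted p = 0.0397). Dgat1, which makes triglyceride in the last step, rose (log2 fold change 0.52, adjusted p = 0.0351) on one probe set and was at -0.08 on its other.

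Treated mouse 5 stood nearest to the vehicle group for several of these genes. Pklr was at -1.02, -1.12, -1.01, -1.04 and -0.42 in the treated mice. Fasn, the fatty acid synthase, was at -1.44, -0.96, -0.96, -1.44 and -0.05 in the treated and 0.12, 0.09, -0.04, -0.05 and -0.10 in the vehicle mice, where treated mouse 5 overlapped the vehicle animals and the change did not pass (log2 fold change -0.97, adjusted p = 0.0526). Elovl6, which elongates palmitate, behaved likewise, with -2.21, -1.64, -1.01, -1.62 and -0.49 in the treated and 0.49, 0.30, -0.23, -0.57 and -0.32 in the vehicle mice (log2 fold change -1.33, adjusted p = 0.0525), while a further Elovl6 probe set fell with separate groups (log2 fold change -1.34, adjusted p = 0.0381). Acacb and Scd1 fell on the probe set with the largest change and not on another. Acacb gave -3.49, -3.80, -1.88, -3.26 and -1.42 against 0.09, 0.23, -0.28, 0.06 and -0.07 in vehicle mice on one probe set (log2 fold change -2.78, SE 0.43, adjusted p = 0.00979), while a second stayed at 0.10. Scd1, the stearoyl-CoA desaturase, gave -5.17, -3.40, -1.49, -2.70 and -1.12 against 0.26, 0.08, -0.07, -0.21 and -0.04 on one probe set (log2 fold change -2.78, SE 0.65, adjusted p = 0.0462), and its other probe set at -1.08 did not pass (adjusted p = 0.247). The Scd1 call held in 3 of the 10 fits.

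In WT mice 6 of the 21 members rose and 1 fell, and the list's median log2 fold change there was -0.0043. Of the 21, 7 differed between genotypes, all lower in PXR-KO mice. Me1 had a log2 fold change of 0.50 in WT mice (difference -2.16, adjusted p = 3.19e-05), Fasn of 0.64 (difference -1.61, adjusted p = 0.000995), Gpam of 0.48 (difference -1.24, adjusted p = 0.000320) and Elovl6 of 1.66 (difference -2.99, adjusted p = 9.57e-05). Acacb was at 0.39 on the probe set given above (difference -3.17, adjusted p = 0.000388).

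Elongases and desaturases fell at 2 of 15 members (median -0.31). Elovl3, the growth hormone-sensitive elongase of very long chains, was at -4.35, -3.69, -2.94, -3.52 and -2.31 in the treated mice, and Elovl5, which elongates polyunsaturated chains, at -1.19, -1.16, -0.50, -0.58 and -0.60 (log2 fold change -0.81, adjusted p = 0.0229). In both genes treated mice 1 and 2 were the lowest. Fatty acid uptake and binding genes were split, with 2 of 18 higher and 2 lower. Fabp7, a binding protein best known from brain, rose evenly, at 1.04, 0.91, 1.17, 1.28 and 1.24 in the treated and 0.05, -0.84, 0.20, -0.01 and -0.12 in the vehicle mice (log2 fold change 1.27, SE 0.18, adjusted p = 0.00720), and the acyl-CoA synthetase Acsl3 rose (log2 fold change 0.74, adjusted p = 0.0257) while Acsl5 fell (log2 fold change -0.71, adjusted p = 0.0115). The other that fell was Fabp5, given above.

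Oxidation of fatty acids was lower at a few enzymes. Of 20 mitochondrial β-oxidation and ketone genes 3 fell and none rose (median -0.13): Acadsb, the dehydrogenase of short branched chains (log2 fold change -0.86, SE 0.15, adjusted p = 0.0161), Acad8, an isobutyryl-CoA dehydrogenase (log2 fold change -0.63, adjusted p = 0.0218), and the thiolase Acaa2 (log2 fold change -0.38, adjusted p = 0.0265). The other probe sets of Acaa2, at -0.17 and -0.22, did not pass. Acadsb gave -1.12, -0.68, -0.81, -1.26 and -0.43 in the treated and 0.03, -0.01, 0.02, 0.02 and -0.08 in the vehicle mice, separate in all animals, and its WT value was -1.28 (difference 0.43, adjusted p = 0.172). Among 18 peroxisomal and omega oxidation genes, Acot3 (log2 fold change 3.15, adjusted p = 0.0361), Acot4 (log2 fold change 1.34, adjusted p = 0.0287) and Acox2 (log2 fold change 0.44, adjusted p = 0.0412) rose, and Abcd3 (log2 fold change -0.52, adjusted p = 0.0161) and the lauric acid hydroxylase Cyp4a12a (log2 fold change -0.99, adjusted p = 0.0260) fell, Abcd3 with its other probe set at 0.08. Acot3 and the PPARα target Cyp4a14 varied widely among the vehicle mice themselves (-2.73 to 1.29 and -3.75 to 1.92), and Cyp4a14 did not pass (log2 fold change 2.57, adjusted p = 0.171). None of the 16 PPARα and fasting genes passed in limma, with 2 higher and 2 lower at an unadjusted p under 0.05. None of the 20 and none of the 18 oxidation genes passed without vehicle mice 2 and 4.

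Cholesterol synthesis gave 1 call among 20 members, Idi1, the isopentenyl diphosphate isomerase (log2 fold change 0.83, adjusted p = 0.0418), whose treated values of 0.13, 1.09, 1.09, 1.06 and 0.71 overlapped the vehicle range in mouse 1 and whose call held in 1 of the 10 fits. Mvk, mevalonate kinase, was split between probe sets: the one that stands for it in the list did not pass (log2 fold change 0.43, adjusted p = 0.143), and another rose with separate groups (log2 fold change 1.43, adjusted p = 0.0165). Sqle, the squalene epoxidase, did not pass (log2 fold change 0.30, adjusted p = 0.225). In WT mice 12 of the 20 rose, and 4 differed between genotypes, all lower in PXR-KO mice. Lipid signalling enzymes gave larger changes. S1pr5, a receptor for sphingosine 1-phosphate, was at 2.32, 1.91, 2.21, 1.33 and 2.80 in the treated and 0.56, 0.34, 0.06, -0.54 and -0.07 in the vehicle mice, without overlap (log2 fold change 2.04, SE 0.28, adjusted p = 0.00585). Pla2g7, which hydrolyzes platelet-activating factor (log2 fold change 1.33, adjusted p = 0.0398), and the ceramide synthase Cers6 (log2 fold change 1.24, adjusted p = 0.0401) rose too, making 3 of 21 phospholipid and sphingolipid genes, and Pltp, the phospholipid transfer protein, fell (log2 fold change -1.83, adjusted p = 0.0333) as the single call of 19 apolipoprotein and of 11 cholesterol export genes.

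Bile acid genes changed in both directions, 3 of 26 higher and 3 lower (median -0.08). Cyp39a1, an oxysterol 7-hydroxylase, gave 1.73, 1.95, 1.19, 1.83 and 1.41 in the treated and 0.27, 0.12, -0.59, -0.07 and 0.19 in the vehicle mice (log2 fold change 1.64, SE 0.20, adjusted p = 0.00392). Cyp8b1, the sterol 12-hydroxylase that sets the share of cholic acid, gave -1.27, -0.73, -0.75, -0.85 and -1.08 against -0.08, 0.16, 0.12, -0.17 and -0.03 (log2 fold change -0.94, SE 0.13, adjusted p = 0.00552). In each gene the groups were separate. The uptake transporter Slco1a4 rose 7.05-fold, from -0.35 to 0.37 in vehicle to 2.16 to 3.67 in treated mice (log2 fold change 2.82, SE 0.28, adjusted p = 0.00142), while the related Slco1a1 fell (log2 fold change -1.11, adjusted p = 0.0177). These 2 transporters of 1 family thus moved apart. The last of the 3 that rose was Abcb1a, the drug exporter (log2 fold change 1.67, adjusted p = 0.0286). Hsd3b7, of the early steroid ring steps, fell (log2 fold change -0.45, adjusted p = 0.0222), and Abcc3, a basolateral exporter, did not pass (log2 fold change 0.42, adjusted p = 0.0683). Cyp39a1 and Cyp8b1 were -0.03 and 0.23 in WT mice (difference 1.66, adjusted p = 0.00805; difference -1.17, adjusted p = 0.000258), and Slco1a4 rose there by 3.72, where the difference did not pass (difference -0.90, adjusted p = 0.195, 95% interval -1.80 to -0.01).

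**Figure D3:**
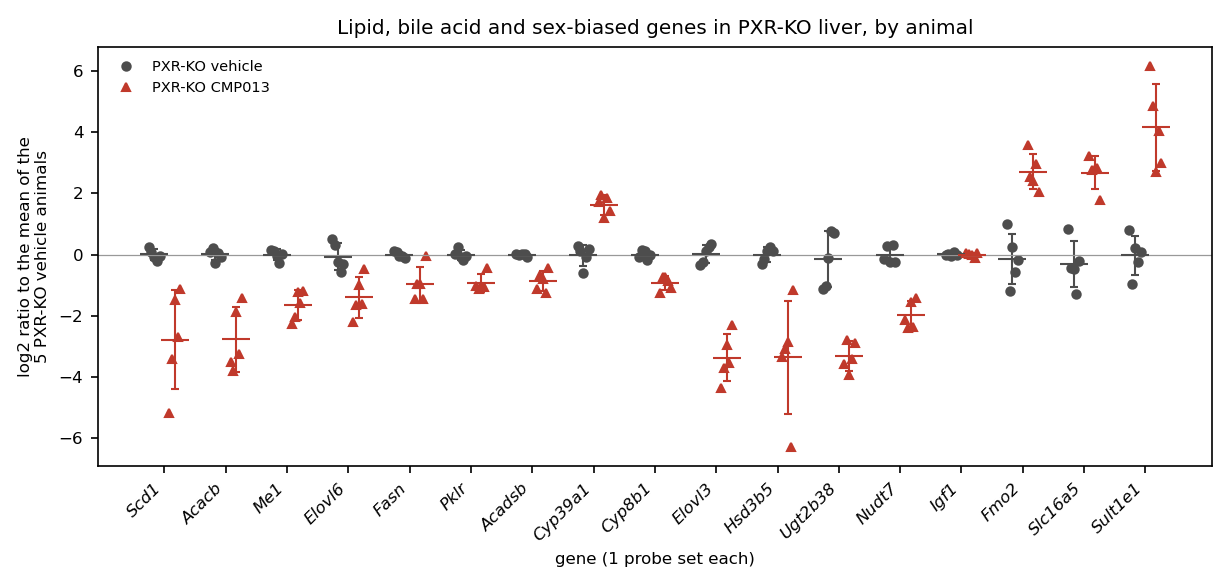
Log2 ratio of each PXR-KO animal to the mean of the 5 PXR-KO vehicle animals for lipid, bile acid and sex-biased genes, 1 probe set per gene, symbols and bars as in the plot of immune genes. Treated mice are spread widely for Scd1 and Hsd3b5 and lie close together for Cyp8b1; Igf1 stays at 0 in both groups.

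The pattern that growth hormone maintains in male liver was lower. Of 26 measured genes with male-biased liver expression 12 fell and 1 rose (median -0.66). All 5 treated mice were past the size threshold at 13 of the 26, and the share of all genes that did so was not counted. Averaged over the list, vehicle mice ran from -0.43 to 0.23 and treated mice from -1.42 to -0.73. Nudt7, a peroxisomal hydrolase of coenzyme A, gave -2.15, -2.40, -1.53, -2.38 and -1.42 in the treated and -0.16, 0.27, -0.25, 0.32 and -0.24 in the vehicle mice (log2 fold change -1.96, SE 0.23, adjusted p = 0.00320). Cyp2u1, a fatty acid hydroxylase, gave -1.84, -1.45, -1.82, -1.74 and -1.09 against -0.37, -0.19, 0.27, -0.30 and -0.14 (log2 fold change -1.44, SE 0.17, adjusted p = 0.00400). Neither overlapped, and both held in all 10 leave-one-out fits and without vehicle mice 2 and 4, as did Elovl3 (log2 fold change -3.38, SE 0.34, adjusted p = 0.00160) and Ugt2b38 (log2 fold change -3.16, SE 0.41, adjusted p = 0.00482), the 4 calls left in that fit.

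Other members were less even. Hsd3b5, a steroid reductase of adult male liver, gave -3.36, -3.09, -2.86, -6.28 and -1.16 in the treated and -0.32, -0.15, 0.12, 0.25 and 0.10 in the vehicle mice. Treated mouse 4 was far below the others and mouse 5 nearest to the vehicle group, and the call (log2 fold change -3.35, SE 0.74, adjusted p = 0.0383) held in 2 of the 10 fits. Keg1, an acyltransferase-like gene of kidney and liver (log2 fold change -1.38, adjusted p = 0.00992), Ugt2b1 (log2 fold change -0.70, adjusted p = 0.0124), the adipokine Serpina12 (log2 fold change -0.85, adjusted p = 0.0139), the male pheromone-binding protein Mup5 (log2 fold change -0.43, adjusted p = 0.0405), Ces1e (log2 fold change -0.95, adjusted p = 0.0465), Slco1a1 and Cyp4a12a were lower. The member that rose was Hsd17b13, a lipid droplet dehydrogenase (log2 fold change 0.56, adjusted p = 0.0351), with its other probe set at -0.07.

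Genes with female-biased expression rose at 5 of 27 and fell at none (median 0.23), and 1 passed without vehicle mice 2 and 4. The 5 were Sult1e1, the estrogen sulfotransferase, at 6.15, 4.86, 2.68, 4.05 and 2.99 in the treated mice (log2 fold change 4.17, SE 0.62, adjusted p = 0.00817), Nipal1, a magnesium transporter (log2 fold change 1.34, adjusted p = 0.0127), Cyp17a1, the steroid 17-hydroxylase (log2 fold change 1.49, adjusted p = 0.0403), and Acot3 and Atp6v0d2, given above, of which Atp6v0d2 was the 1 that passed in that fit. Treated mouse 1 was the highest for Sult1e1 and mouse 3 the lowest. Fmo2, a flavin monooxygenase of the same list, gave 3.57, 2.55, 2.40, 2.97 and 2.05 in the treated and 0.998, -1.20, 0.24, -0.58 and -0.18 in the vehicle mice (log2 fold change 2.85, SE 0.41, adjusted p = 0.00684) on the probe set with the largest change, and 3 further probe sets rose by 1.86 to 2.85 while 1 stayed at 0.09. Vehicle mice 1 and 2 lay far apart, still below every treated mouse. The flat probe set is the one that stands for Fmo2 in the list, so Fmo2 is not among the 5. Slc16a5, a monocarboxylate transporter, was likewise split between probe sets, at 3.21, 2.75, 2.80, 2.82 and 1.78 in the treated mice on one (log2 fold change 2.99, adjusted p = 0.00457) and at 0.23 on the other.

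The receptor pathway itself gave few calls. Of its 21 members 1 fell, Stat5b (log2 fold change -0.43, adjusted p = 0.0432), and its call held in 1 of the 10 fits. Ghr, the growth hormone receptor, was at -0.42, -0.27, -0.24, -0.39 and -0.23 in treated mice, below all vehicle mice, and did not pass (log2 fold change -0.31, adjusted p = 0.0656). Igf1, the hormone that liver secretes under growth hormone, ran from -0.12 to 0.05 in the treated and from -0.06 to 0.09 in the vehicle mice, with a 95% interval of the log2 fold change from -0.17 to 0.16. In WT mice Igf1 changed by -0.80 (difference 0.80, adjusted p = 9e-05), and Ghr by -0.68 (difference 0.37, adjusted p = 0.0387). Of the male-biased genes 13 of 26 fell in WT mice as well, and 7 differed between genotypes, 4 higher and 3 lower in PXR-KO mice. Keg1, at -0.39 in WT mice, fell by more without PXR (difference -0.99, adjusted p = 0.0327), and Serpina12, at -2.80, fell by less (difference 1.95, adjusted p = 0.00167).

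Stress genes were led by the immediate early class, transcription factors and feedback regulators that respond to many signals within minutes to hours. Of 17 members 7 rose and none fell, with a median of 0.53, 12 were higher at an unadjusted p under 0.05, and 2 passed without vehicle mice 2 and 4. Fos gave 2.85, 3.91, 2.39, 3.55 and 1.71 in the treated and -0.46, 0.68, 0.13, -0.04 and -0.38 in the vehicle mice (log2 fold change 2.90, SE 0.40, adjusted p = 0.00596). Its partner Jun gave 2.20, 1.89, 2.12, 1.97 and 0.88 against -0.05, 0.69, -0.54, 0.03 and -0.17 (log2 fold change 1.82, SE 0.28, adjusted p = 0.00994), and together the 2 proteins form AP-1. Treated mouse 5 was the lowest in both genes yet above every vehicle mouse. Ier3 (log2 fold change 1.16, adjusted p = 0.00625), Myc (log2 fold change 0.79, adjusted p = 0.00841), Map3k5 (log2 fold change 0.49, adjusted p = 0.0277) and Jund (log2 fold change 0.44, adjusted p = 0.0361) rose by less, and Egr1 rose with overlapping groups (0.67 to 2.38 in treated, -1.16 to 0.86 in vehicle mice; log2 fold change 1.86, adjusted p = 0.0410).

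In WT mice 4 of the 17 rose and 4 fell. Fos was at 0.10 there (difference 2.80, adjusted p = 0.00211) and Egr1 at -1.248 (difference 3.10, adjusted p = 0.000944). For Jun the difference did not pass on the probe set given above (1.09, 95% interval 0.10 to 2.09). It passed on the other Jun probe set, at 2.635 in PXR-KO and 0.62 in WT mice (difference 2.014, adjusted p = 0.00469).

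Promoters were examined for the sites that these factors are known to bind, in the 250 bases before each RefSeq start of GRCm38.p6, both strands. TGACTCA, the AP-1 site, lies in 4.46% of 32851 promoters, TGACNTCA, the CREB and ATF site, in 7.49%, and TTCNNNGAA, the STAT5 site, in 7.02%. Of the 7 immediate early genes that rose, 5 had a promoter in the table, none with the AP-1 letters and 1, Jun, with the CREB and ATF letters. Of the 13 male-biased genes that changed, 9 had a promoter in the table and 1, Keg1, held the STAT5 letters. Mmp12 was added because it had the largest rise. The matching sequences of Jun, Mmp12 and Keg1 follow, 5′ to 3′ on the gene's strand, with the matched letters in capitals. A match is a description of these letters and no sign of binding.
Jun, chr4:95052223-95052472, minus strand: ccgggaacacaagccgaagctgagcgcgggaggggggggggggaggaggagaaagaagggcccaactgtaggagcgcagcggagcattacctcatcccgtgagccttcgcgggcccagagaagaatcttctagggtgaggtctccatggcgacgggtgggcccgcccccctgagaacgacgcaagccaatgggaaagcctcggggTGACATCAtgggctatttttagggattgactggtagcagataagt
Mmp12, chr9:7347124-7347373, plus strand: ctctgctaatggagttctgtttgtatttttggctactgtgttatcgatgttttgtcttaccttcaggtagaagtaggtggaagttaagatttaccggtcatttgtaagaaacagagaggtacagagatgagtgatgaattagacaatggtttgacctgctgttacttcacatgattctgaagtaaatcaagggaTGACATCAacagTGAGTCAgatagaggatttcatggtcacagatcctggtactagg
Keg1, chr19:12695540-12695789, plus strand: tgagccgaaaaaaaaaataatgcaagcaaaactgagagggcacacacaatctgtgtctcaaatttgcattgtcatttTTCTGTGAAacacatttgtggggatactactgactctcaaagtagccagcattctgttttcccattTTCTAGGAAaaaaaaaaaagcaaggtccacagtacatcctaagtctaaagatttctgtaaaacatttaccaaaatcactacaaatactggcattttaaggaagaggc
In Jun the match begins 45 bases before the start. In Mmp12 the CREB and ATF letters begin 56 bases before the start and the AP-1 letters, read on the other strand, 44 bases before it. A second Mmp12 start, with chr9:7344147-7344396 before it, held neither. Keg1 has 2 matches, 173 and 107 bases before the start.

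Regulators of stress programs followed the immediate early genes. Atf3, a stress-induced repressor and member of the ATF4 and CHOP list, gave 2.92, 2.68, 1.96, 2.91 and 1.57 in the treated and -0.15, 0.09, 0.05, -0.17 and 0.13 in the vehicle mice, separate in every animal (log2 fold change 2.42, SE 0.26, adjusted p = 0.00245). The list as a whole had 2 higher and 1 lower of 23 (median 0.14). Psat1, of serine synthesis, rose (log2 fold change 1.04, adjusted p = 0.0403) with treated mouse 3 inside the vehicle range, and Trib3, a pseudokinase that CHOP induces, fell at -1.45, -0.96, -1.67, -1.57 and -1.33 (log2 fold change -1.26, adjusted p = 0.00720). In WT mice 10 of the 23 rose, Psat1 by 3.10 (difference -2.06, adjusted p = 0.000779). Gadd45b, a growth arrest and DNA damage gene, rose 10.1-fold on the probe set with the largest change, at 3.01, 3.76, 3.32, 3.78 and 2.69 in the treated and 0.00, -0.57, -0.26, 0.50 and 0.24 in the vehicle mice (log2 fold change 3.33, SE 0.26, adjusted p = 0.000652). A second probe set rose by 3.10 and another stayed at -0.06. Btg2 (log2 fold change 1.37, adjusted p = 0.0147), an antiproliferative gene, and Pmaip1 (log2 fold change 1.12, adjusted p = 0.0263), a BH3-only death gene, were the 2 of 22 p53, growth arrest and apoptosis genes that rose, and Gadd45b is not counted among them on the probe set chosen for that list.

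Oxidative stress genes rose in part. Nrf2 (gene Nfe2l2) responds to electrophiles and drives glutathione synthesis and quinone reduction, and 7 of its 26 genes rose with none lower (median 0.25). Hmox1, heme oxygenase, gave 1.88, 1.57, 1.18, 1.76 and 0.96 in the treated and -0.18, -0.34, 0.01, 0.01 and 0.30 in the vehicle mice (log2 fold change 1.51, SE 0.19, adjusted p = 0.00482). Gss, glutathione synthetase, gave 0.99, 1.31, 0.93, 1.23 and 0.77 against -0.07, -0.78, 0.15, -0.11 and 0.12 (log2 fold change 1.19, SE 0.19, adjusted p = 0.0102), with vehicle mouse 2 apart from its group on the low side. For both, all treated mice were above all vehicle mice, and both passed without vehicle mice 2 and 4, the 2 calls left there. Txnrd1 (log2 fold change 0.51, adjusted p = 0.00982), Gsta2 (log2 fold change 1.48, adjusted p = 0.0186), Cbr3 (log2 fold change 1.17, adjusted p = 0.0249), Nqo1 (log2 fold change 0.87, adjusted p = 0.0383) and Nfe2l2 itself (log2 fold change 0.51, adjusted p = 0.0276) rose as well. In WT mice 20 of the 26 rose, and 15 differed between genotypes, 14 of them lower in PXR-KO mice, such as Cbr3 (4.58 in WT; difference -3.41, adjusted p = 2.99e-05). Hmox1 was the 1 that was higher (-0.06 in WT; difference 1.57, adjusted p = 0.000397).

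Gpx3, the secreted glutathione peroxidase, was the single call among 17 antioxidant enzymes and metallothioneins, at 2.06, 1.67, 1.42, 1.63 and 1.77 in the treated and 0.15, -0.39, -0.20, 0.03 and 0.19 in the vehicle mice (log2 fold change 1.75, SE 0.15, adjusted p = 0.00101). Its WT value was -0.19 (difference 1.94, adjusted p = 0.000104). Mt2, a metallothionein, ranged from -1.89 to 0.80 in vehicle mice alone and did not pass (log2 fold change 1.28, adjusted p = 0.231).

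Protein folding genes rose by small amounts. Of 23 cytosolic heat shock genes 6 rose (median 0.23), namely Dnajb4 (log2 fold change 0.48, adjusted p = 0.0168), Ahsa1 (log2 fold change 0.49, adjusted p = 0.0203), Hspa8 (log2 fold change 0.58, adjusted p = 0.0207), Dnajb1 (log2 fold change 0.49, adjusted p = 0.0259), Bag3 (log2 fold change 0.62, adjusted p = 0.0281) and Dnaja2 (log2 fold change 0.39, adjusted p = 0.0377). Hspa8, the constitutive Hsp70, gave 0.43, 0.67, 0.42, 0.76 and 0.60 in the treated and -0.06, -0.23, 0.02, 0.02 and 0.20 in the vehicle mice. Of 2 further Dnajb4 probe sets, 1 rose by 0.69 and 1 was at -0.07. Each of the 6 had separate groups, and none passed without vehicle mice 2 and 4. Of 33 chaperones and unfolded protein response genes of the endoplasmic reticulum 1 rose, the sensor Atf6 (log2 fold change 0.49, adjusted p = 0.0463), in 1 of the 10 leave-one-out fits, where WT mice had 8 higher and 2 lower. Nfkbiz, an inducible nuclear member of the IκB family, was the 1 of 15 NFκB genes that rose, at 1.26, 0.99, 1.15, 1.43 and 0.98 in the treated and -0.02, -0.45, 0.09, 0.01 and 0.03 in the vehicle mice (log2 fold change 1.23, SE 0.13, adjusted p = 0.00250).

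**Figure D4:**
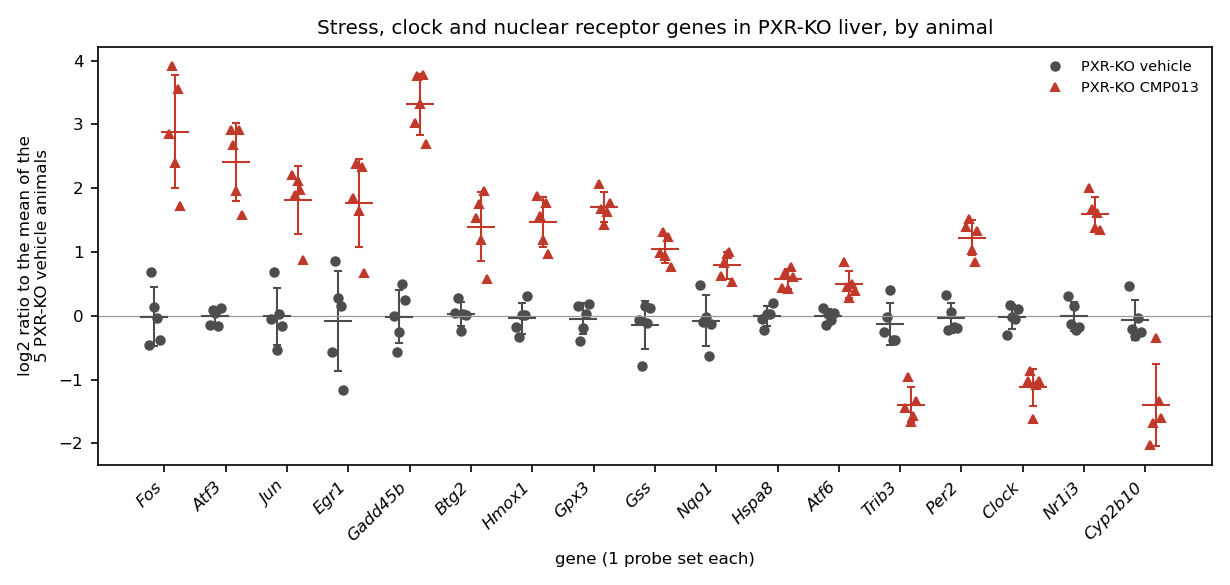
Log2 ratio of each PXR-KO animal to the mean of the 5 PXR-KO vehicle animals for stress, clock and nuclear receptor genes, 1 probe set per gene, symbols and bars as in the plot of immune genes. Treated mouse values for Atf3, Gadd45b and Gpx3 lie above all vehicle values, and those of Trib3 and Clock lie below.

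The drug-metabolizing genes that PXR and CAR control gave 5 rises and 3 falls among 24 members (median 0.02), against 16 and 2 in WT mice, and 13 of them differed between genotypes, 12 lower and 1 higher in PXR-KO mice. Cyp3a11, the classical PXR target, ran from -0.25 to -0.05 in treated and -0.09 to 0.05 in vehicle mice and did not pass (log2 fold change -0.12, adjusted p = 0.435), with 0.64 in WT mice (difference -0.76, adjusted p = 2.92e-05). The CAR target Cyp2b10 fell, at -2.02, -1.69, -0.34, -1.34 and -1.61 against 0.47, -0.20, -0.32, -0.04 and -0.26, where it rose by 6.47 in WT mice (difference -7.80, adjusted p = 2.22e-10), although the fall (log2 fold change -1.33, adjusted p = 0.0363) held in 1 of the 10 fits. The other probe sets of Cyp2b10, at -1.96 and -2.25, did not pass (adjusted p = 0.0666 and 0.0534). Cyp2c55 fell (log2 fold change -3.92, adjusted p = 0.00492) and Ces2a fell (log2 fold change -1.08, adjusted p = 0.0294), and both rose in WT mice (5.90 and 1.70). Slco1a4, Abcb1a (log2 fold change 1.67, adjusted p = 0.0286), Cyp2c38 (log2 fold change 0.999, adjusted p = 0.0257), Cyp2c39 (log2 fold change 0.91, adjusted p = 0.0359) and Cyp3a13 (log2 fold change 0.64, adjusted p = 0.0404) were the members that rose without PXR. The calls of Abcb1a and Cyp2c38 held in 4 of the 10 fits, and those of Cyp2c39, Cyp3a13 and Ces2a in 2. The groups of Abcb1a overlapped. Without vehicle mice 2 and 4 the list had 1 rise, Slco1a4, and 1 fall, Cyp2c55.

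The receptor genes themselves changed. Nr1i3, which encodes CAR, gave 1.995, 1.67, 1.37, 1.61 and 1.34 in the treated and 0.31, -0.13, 0.15, -0.22 and -0.17 in the vehicle mice, separate in every animal (log2 fold change 1.60, SE 0.15, adjusted p = 0.00138). It had a log2 fold change of -0.70 in WT mice (difference 2.31, adjusted p = 8.25e-06), and its call in PXR-KO mice held in all 10 fits and without vehicle mice 2 and 4. Probe sets of Nr1i2, the deleted gene, moved by 0.54 (adjusted p = 0.0435) and 0.46 (adjusted p = 0.0250), the first of which held in 2 of the 10 fits. As ratios within the knockout they hold no level, and which part of the transcript they read was not examined.

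Clock, cell cycle and iron genes showed further changes. Per1 (log2 fold change 0.83, adjusted p = 0.0250) and Per2, at 1.38, 1.52, 1.04, 0.85 and 1.32 in the treated mice (log2 fold change 1.26, SE 0.16, adjusted p = 0.00459), rose and Clock fell, at -1.02, -0.86, -1.61, -1.09 and -1.02 (log2 fold change -1.10, SE 0.15, adjusted p = 0.00585), of 18 circadian genes. Of 3 further Clock probe sets, 2 fell as well and 1 was at 0.09. The repressor gene Nr1d1 was at -1.44, -1.73, -1.94, -4.02 and -1.002 with no overlap and did not pass (log2 fold change -2.002, adjusted p = 0.0567). Ccna2, cyclin A2, was the single call of 28 cell cycle genes and fell (log2 fold change -0.45, adjusted p = 0.0201), where 12 rose and 2 fell in WT mice and 10 differed, all lower in PXR-KO mice (Ccna2 0.80 in WT; difference -1.252, adjusted p = 2.8e-05). Mki67 did not pass in PXR-KO mice (log2 fold change -1.72, adjusted p = 0.0567; 1.85 in WT, difference -3.57, adjusted p = 0.00202). Of 21 iron and heme genes 4 rose, Hmox1 and Slc40a1 as given above, Slc11a1, the phagosomal iron transporter (log2 fold change 0.69, adjusted p = 0.0147), and Id1, a target of bone morphogenetic protein signalling, at 2.35, 2.17, 1.33, 2.29 and 0.92 in treated mice (log2 fold change 1.97, adjusted p = 0.0171). Smaller groups gave single calls: Gla, α-galactosidase, rose (log2 fold change 0.66, adjusted p = 0.0351) among 27 lysosome and proton pump genes, the carboxylesterase Ces1g rose (log2 fold change 0.43, adjusted p = 0.0375) among 18 lipid droplet and lipase genes, and Tiparp (log2 fold change 0.74, adjusted p = 0.0402) rose beside Nqo1 among 9 Ahr targets. Ppp1r3c, which targets a phosphatase to glycogen, fell (log2 fold change -1.22, adjusted p = 0.0352) beside Pklr among 14 glucose and insulin response genes.

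Markers of the remaining cell types serve as the frame for these changes. None of 15 hepatocyte markers changed in limma (median -0.10), with 1 higher and 2 lower at an unadjusted p under 0.05. Sinusoidal endothelial markers gave Lyve1 higher (log2 fold change 1.16, SE 0.20, adjusted p = 0.0153) and Dnase1l3 (log2 fold change -1.05, adjusted p = 0.0308) and Kdr (log2 fold change -0.41, adjusted p = 0.0469) lower of 15, with a median of -0.24. Stellate cell and matrix genes gave Loxl1 (log2 fold change -0.70, adjusted p = 0.0155) and Lum (log2 fold change -0.60, adjusted p = 0.0468) lower of 22, and biliary and progenitor markers gave the keratins Krt8 (log2 fold change 0.76, adjusted p = 0.0177) and Krt18 (log2 fold change 0.78, adjusted p = 0.0389) higher of 15. Alas2, the heme synthesis enzyme of red cell precursors, fell at -2.11, -2.10, -1.11, -2.28 and -0.96 (log2 fold change -1.71, SE 0.26, adjusted p = 0.00964), 1 of 6 erythroid markers. Their part in the changes above was not tested.

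**Figure D5:**
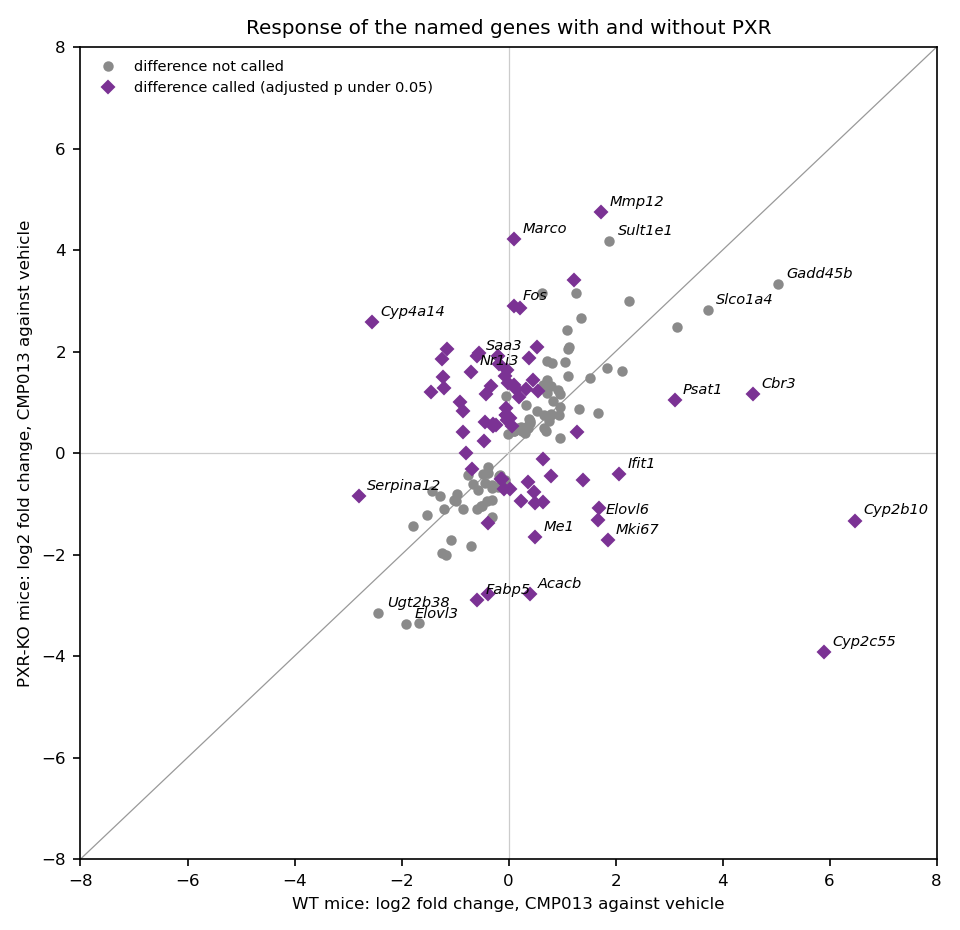
Log2 fold change under CMP013 of 162 genes in WT mice (horizontal) and PXR-KO mice (vertical), 1 point per gene, with the line of equal response; purple diamonds mark genes whose difference passed an adjusted p under 0.05. Cyp2c55 and Cyp2b10 lie at the lower right, and Marco, Mmp12 and Fos lie above the line.

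Of 162 genes tracked through every fit, nearly all of them described above, 141 changed in PXR-KO mice, 65 of them in all 10 leave-one-out fits and 36 also without vehicle mice 2 and 4. Most of the 162 were picked because they passed in this comparison, so the 141 is no measure of the response. The difference between genotypes passed for 72 of the 162, with the PXR-KO value higher for 46 and lower for 26, where 13.3% of all genes differed. The choice of genes by their change in PXR-KO mice bears on this count too.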

How the data were processed

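The series table holds 1 value per probe set and animal, as the authors deposited it: the log10 ratio of the intensity of an animal to the mean of the 5 vehicle animals that share its genotype, made in Rosetta Resolver 7.2 from Affymetrix Mouse 430_2 arrays. All 20 columns match a sample. Ratios were multiplied by 3.32, the log2 of 10, and kept with the authors' normalization. Detection calls, intensities and depth were not used here, so dim probe sets were kept, and the number of arrays limits the precision. In the PXR-KO mice the standard deviation of a column was 0.340 to 0.463 log2 units in vehicle and 0.468 to 0.568 in treated mice. The sources used here name no batch or cage.

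CMP013 against vehicle was tested on the 10 PXR-KO arrays in R 4.3.3 by limma 3.58.1 (its lmFit and eBayes steps, two-sided, Benjamini-Hochberg over 45037 probe sets, adjusted p under 0.05), and the difference of the PXR-KO and WT responses on all 20 arrays. On simulated data for the PXR-KO comparison, limma recovered 14%, 55% and 91% of probe sets changed by 0.5, 1 and 2 log2 units among 45037, with 7 false calls. The simulated noise was normal, independent between probe sets and of the same spread in both groups, and few probe sets were changed. The simulation therefore does not give the error rate on the real arrays. Probe sets naming 1 gene number 34945, 932 name several and 9160 none. A gene was measured by a probe set without the _s_ or _x_ mark first, then by the smallest standard deviation over WT vehicle mice. Members of 49 gene lists, 860 of 954 genes measured, were counted with no set test. Named genes are the deleted gene, members of the lists that passed or that came next by p, genes the study names, and the 15 highest and 15 lowest changes whose groups do not overlap. Of these, 162 were tracked through every fit, and most of the last kind that belong to no list are not among them. For Acacb, Scd1, Fmo2, Slc16a5 and Gadd45b the probe set of that last rule was used and the others are given beside it. Further probe sets are not given for every gene. Acaa2, Acot4, Ahsa1, Atf6, Ccna2, Cd44, Cxcl1, Dnaja2, Dnajb1, Gla and Gpam passed on 1 probe set and not on their others. The same holds for Idi1, Jund, Loxl1, Map3k5, Nfe2l2, Ppp1r3c, Serpina12, Slc40a1, Stat5b and Txnrd1. In each of these genes all probe sets moved in the same direction. The members and lists were chosen with earlier results of these data known. Alternatives were the replicate number as a block, trend and robust variances, array weights, all 4 groups in one fit, a shift of each array to a common median, quantile normalization, only the probe sets with the smaller spread in WT vehicle mice, a size of at least 1.25-fold, another probe set per gene and each PXR-KO animal left out in turn. Omission of vehicle mice 2 and 4 together was added after seeing the data. Promoter sequences came from RefSeq. Counts, lists and plots were made in Python 3.11.15 (pandas 2.3.3, numpy 2.4.6, matplotlib 3.10.9).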

Additional observations from a re-analysis of the deposited data

Results flagged for a closer look

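The response to CMP013 differed between PXR-KO and WT mice, in the limma test of the difference over all 20 arrays, at 72 of the 162 genes tracked through every fit, and the log2 difference was higher in PXR-KO mice for 46 and lower for 26. Most of these 162 genes were picked by their change in PXR-KO mice, and 13.3% of all genes differed. Higher and lower here refer to the log2 response in PXR-KO mice minus that in WT mice. They say nothing of expression levels, and a higher response can be a smaller fall. Among nuclear receptor, drug metabolism and transport genes, the response was higher in PXR-KO mice at Nr1i2 (by 0.82), Nr1i3 (by 2.31) and Cyp2c38 (by 1.91). It was lower, with differences of -9.82 for Cyp2c55, -7.80 for Cyp2b10, -2.78 for Ces2a, -0.76 for Cyp3a11 and -0.86 for Abcc3. Macrophage genes were higher in PXR-KO mice at Mmp12 (by 3.02), Lgals3 (by 1.56), Cd68 (by 0.92), Gpnmb (by 1.503), Ctsz (by 0.46), Lgmn (by 0.85), Marco (by 4.11), Clec1b (by 1.04), Slc40a1 (by 1.27), Vsig4 (by 0.69), Tyrobp (by 0.69), Clec4d (by 2.18) and Slc11a1 (by 0.66), and lower, with differences of -2.30 for Fabp5. Further immune, adhesion and acute phase genes were higher in PXR-KO mice at Ccl6 (by 2.12), Vcam1 (by 0.98), Itgb2 (by 0.93), Cd44 (by 0.80), Saa3 (by 2.50), Saa1 (by 2.65) and Nfkbiz (by 0.67), and lower, with differences of -0.95 for Tap1, -2.48 for Ifit1, -1.93 for Ifit3 and -0.39 for C8g. Lipid and bile acid genes were higher in PXR-KO mice at Fabp7 (by 1.14), Cyp4a14 (by 5.12), S1pr5 (by 3.20), Pla2g7 (by 1.66) and Cyp39a1 (by 1.66), and lower, with differences of -2.16 for Me1, -1.24 for Gpam, -1.61 for Fasn, -2.99 for Elovl6, -3.17 for Acacb, -2.40 for Scd1, -0.75 for Acsl5, -0.37 for Abcd3, -1.48 for Cyp4a12a and -1.17 for Cyp8b1. Among growth hormone and sex-biased genes, the response was higher in PXR-KO mice at Ghr (by 0.37), Igf1 (by 0.80), Serpina12 (by 1.95), Hsd17b13 (by 0.80), Nipal1 (by 1.248), Cyp17a1 (by 2.72) and Fmo2 (by 2.63). It was lower, with differences of -0.99 for Keg1 and -0.62 for Ugt2b1. Within PXR-KO mice Ghr and Igf1 did not pass, and Serpina12 fell. Stress genes were higher in PXR-KO mice at Fos (by 2.80), Egr1 (by 3.10), Btg2 (by 1.39), Hmox1 (by 1.57), Gpx3 (by 1.94) and Mt2 (by 2.49), and lower, with differences of -2.06 for Psat1 and -3.41 for Cbr3. Clock, cell cycle and other genes were higher in PXR-KO mice at Per1 (by 1.69), Per2 (by 0.94), Tiparp (by 0.80), Id1 (by 2.51) and Lyve1 (by 1.57), and lower, with differences of -1.252 for Ccna2 and -3.57 for Mki67. The WT and PXR-KO mice differ in strain source as well as in PXR.

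Single animals lay far from the other 4 of their group at 14 of the 324 gene and group pairs tested, or 4.32%, where chance gives about 1 in 20. Among vehicle mice, mouse 2 was highest for Chil3 (0.61) and lowest for Gss (-0.78), Nfkbiz (-0.45) and Tiparp (-0.52), mouse 4 was highest for Lcn2 (1.61), and mouse 5 was highest for Itgb2 (0.48) and lowest for Myc (-0.14). Among treated mice, mouse 1 was highest for Saa1 (1.94) and Bag3 (1.05), mouse 2 lowest for Ifit1 (-0.86), mouse 4 highest for Pmaip1 (1.29), and mouse 5 was highest for Vsig4 (0.54) and Pklr (-0.42) and lowest for Jun (0.88). All are log2 ratios to the mean of the PXR-KO vehicle mice. Vehicle mouse 2 accounts for 4 of the 14 and treated mouse 5 for 3.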

How the results depend on the processing

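With all 10 PXR-KO arrays and limma, 1645 probe sets passed, 953 higher and 692 lower. The number stayed within 1.5 times of that under array weights, a shift of each array to a common median, the probe sets with the smaller spread in WT vehicle mice alone, and the size threshold. The counts were smaller with quantile normalization of the log ratios (498, with 259 higher and 239 lower), without vehicle mice 2 and 4 together (363, with 210 higher and 153 lower), and with trend and robust variances (0, with 0 higher and 0 lower, and 8806 at an unadjusted p under 0.05). They were larger with all 4 groups in one fit (3049, with 1701 higher and 1348 lower). Leave-one-out fits gave 620 to 1728 in all, 350 to 1004 higher and 270 to 724 lower, lowest without treated mouse 4 and highest without treated mouse 3. The 1645 calls kept their direction in each of these fits that tested them (947 of them were among the probe sets with the smaller WT spread). The same mice selected these calls, so this is no independent support. The difference between genotypes, 4936 probe sets, fell to 1231 with quantile normalization and lay between 3908 and 5120 in the leave-one-out fits. The cause of these shifts was not tested.

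The replicate number as a block left 119 calls, 71 higher and 48 lower, of which 115 were among the 1645. The labels do not say that the numbers pair these samples. Same-numbered vehicle and treated mice deviated from their group means with correlations of -0.10, -0.20, -0.18, -0.09 and 0.05 across probe sets, and the best match of a mouse was not its own number. The highest correlation, 0.255, was between vehicle mouse 2 and treated mouse 3. Such correlations cannot show whether a number marks a shared batch.

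Of the 162 genes tracked through every fit 141 were called, most of them picked because they passed. Of the 141, 117 lost the call with the block, 105 without vehicle mice 2 and 4, 73 with quantile normalization and 24 to 71 in the leave-one-out fits. Slc40a1, Ccl3, H2-Ab1, Ces1g and Kdr lost it in all 10 of the latter. Igf1, which was not called, was at -0.0206 to 0.0234 in the leave-one-out fits (0.0166 without vehicle mouse 4), 0.0280 without vehicle mice 2 and 4, 0.0226 as the mean over its probe sets and 0.0943 on the probe set with the largest change. No other of the 162 changed sign. Dim probe sets could not be told from bright ones here, so limits from signal over background are not given.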

Other observations

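Some large changes belong to no group described above. Ighm, the heavy chain gene of IgM, fell on 2 of its 11 probe sets (log2 fold changes -4.10, adjusted p = 0.00138, and -3.11, adjusted p = 0.00396, by limma), while the other 9 had log2 fold changes from -0.29 to 0.97 and did not pass. On the first of the pair the treated mice gave -4.06, -4.67, -4.30, -5.16 and -3.56 and the vehicle mice 0.51, 0.05, -0.98, 0.36 and -1.18, so all treated mice were low, and in WT mice the same pair had log2 fold changes of 1.80 and 1.31. None of the 11 measured B and plasma cell markers changed in PXR-KO mice by limma, with 0 higher and 3 lower at an unadjusted p under 0.05. The cause of the disagreement between Ighm probe sets was not tested.

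Other genes with large changes and separate groups were Wnt5b, a Wnt ligand (log2 fold change 3.11, adjusted p = 0.0286), and the splicing helicase Ddx46 (2.77, adjusted p = 0.000682, WT 0.09). On the lower side were the nicotinic receptor subunit Chrna4 (-2.24, adjusted p = 0.00631, WT 0.56), the pseudogene Serpina4-ps1 (-2.48, adjusted p = 0.000437, WT -4.58) and the kinase adaptor Tab1 (-2.27, adjusted p = 0.00582). The values of Ddx46, Chrna4, Serpina4-ps1 and Tab1 come from the passing probe set with the largest change. By the rule used for the lists, another probe set stands for each of these genes. Their other probe sets are not given, so these values describe single probe sets.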
